A study of Mus musculus with 25 samples.

Results

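Of the 25 arrays of mouse mammary tissue, 5 labelled as tumors of the Lgr5 line (Lgr5 tumors 2, 6, 7, 8 and 9) had the highest levels of fat cell genes, and these 5 split by Ucp1, the brown fat uncoupling protein gene. Members were chosen by measured values. Lgr5 tumors 6, 7 and 8 had Ucp1 above 12 on the log2 scale and are called Ucp1-high, and Lgr5 tumors 2 and 9 had Ucp1 below 6 and are called Ucp1-low. The lowest Ucp1-high array stood at 12.07 and the highest Ucp1-low array at 5.92, so no array of the 5 lay near either limit. Because Ucp1 formed the sets, every difference between them is given as a description with its spread and without a test.

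Brown fat cells burn fatty acids to make heat. Their mitochondria carry the uncoupling protein encoded by Ucp1, which lets protons return across the inner membrane without making ATP, and sympathetic nerves turn this on in the cold through beta-adrenergic receptors. Beige cells within white fat depots, including the fat pad around the mammary gland, can switch on the same program. The mammary fat pad also holds a lymph node, so tissue cut from it can carry T and B cells.

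The study compared 10 tumors of Lgr5-creERT2/PIK3CA H1047R mice and 10 tumors of K8-creERT2/PIK3CA H1047R mice with glands of Lgr5-creERT2 (3 arrays) and K8-creERT2 (2 arrays) control mice. PIK3CA H1047R is an activating mutant of the catalytic subunit of PI3-kinase, and creERT2 is a recombinase that tamoxifen activates. All 5 fat-rich arrays carry the same labels: Lgr5-creERT2/PIK3CA H1047R, a mixed FVB/C57/BL6 background, tissue mammary tumor, and tamoxifen given to adult mice at 7 to 8 weeks. Mice of the K8 line were mixed FVB/CD1. The mutant is switched on only in cells that express Lgr5, a receptor of Wnt-responsive cells, or K8, a luminal keratin, so fat cells are not the labelled target, and the labels state no genotype per animal. They also do not say whether tumors came from separate animals, so the spread between arrays may be partly technical. RNA was amplified from 100 ng of input.

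Values are log2 expression of 19937 genes, with array medians of 6.38 to 6.40 in the 5 arrays. Correlations over all genes were 0.994 to 0.995 among the Ucp1-high arrays, 0.992 between the Ucp1-low arrays and at least 0.986 among all 5, a description over genes of 1 tissue. The table gives no detection calls, so a value below the array median may be background, and a difference from such a value may be smaller than the true change. In bulk tissue, fewer cells of a type and less RNA per cell cannot be told apart.

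The tissue label was checked first. The mean of 19 white adipocyte genes was 11.66, 11.67 and 11.71 in Lgr5 tumors 6, 7 and 8, compared with 12.02 and 11.89 in Lgr5 tumors 2 and 9. The 15 remaining tumor arrays had 8.54 to 10.98 and the gland arrays 8.32 to 9.66. The mean of 18 luminal epithelial genes was 9.13, 9.34 and 8.79 in the Ucp1-high arrays and 8.88 and 9.45 in the Ucp1-low arrays, against 10.22 to 10.74 in the other tumor arrays. Fat cell genes were thus above, and luminal genes below, the range of the other tumor arrays in all 5. Krt8, the keratin of luminal cells, read 11.69, 11.90 and 11.25 in Lgr5 tumors 6, 7 and 8, compared with 11.49 and 11.81 in Lgr5 tumors 2 and 9, where the 20 other arrays had at least 12.80. The luminal list did not separate the Ucp1-high from the Ucp1-low arrays: 0 of 18 genes were without overlap in either direction.

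Ucp1 was 12.47, 12.07 and 12.18 in Lgr5 tumors 6, 7 and 8, compared with 5.92 and 5.89 in Lgr5 tumors 2 and 9. The difference of set means was 6.34 (pooled SD within sets 0.17, n = 3 and 2), or 80.7-fold. The 3 arrays of one set lay close together, those of the other as well, and no value fell between. In the 20 other arrays Ucp1 spanned 5.46 to 11.30, so the Ucp1-high arrays had the highest levels of the series.

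Across all genes, 39 were higher in the Ucp1-high arrays with a gap of at least 1 between the lowest of them and the highest Ucp1-low array (0.196% of genes), and 16 were lower by the same measure (0.0803%). Without a minimum gap, 18.5% of genes were higher with no overlap and 15.9% lower with no overlap, and the median difference over all genes was 0.01. The sets were formed on this contrast, so nothing is read from these shares. Of the 39 higher genes, 20 stood in a list of brown fat, mitochondrial or other genes, and of the 16 lower genes 2 did.

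Promoter sequences are shown for Ucp1 itself, for Slc27a2 and Cox7a1 as further members of the brown fat group with and without the searched motif, and for Gdpd3, which split the same arrays but is no brown fat gene. Each line gives the 250 bases before the transcription start from RefSeq (GRCm38.p6), read 5′ to 3′. Capitals mark AGGTCA or its other strand TGACCT, the half-site bound by PPAR, thyroid hormone and other nuclear receptors.
Ucp1, chr8:83290098-83290347, plus strand: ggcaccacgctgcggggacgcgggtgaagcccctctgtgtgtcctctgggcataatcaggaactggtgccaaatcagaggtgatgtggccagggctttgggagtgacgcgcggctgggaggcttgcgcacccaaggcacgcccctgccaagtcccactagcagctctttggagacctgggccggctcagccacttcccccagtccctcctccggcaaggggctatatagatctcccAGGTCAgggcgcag
Slc27a2, chr2:126552774-126553023, plus strand: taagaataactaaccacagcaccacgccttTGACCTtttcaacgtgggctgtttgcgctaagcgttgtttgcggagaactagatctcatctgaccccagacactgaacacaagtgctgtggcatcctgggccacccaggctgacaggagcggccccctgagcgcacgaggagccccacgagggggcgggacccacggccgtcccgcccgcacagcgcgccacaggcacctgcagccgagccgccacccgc
Cox7a1, chr7:30183921-30184170, plus strand: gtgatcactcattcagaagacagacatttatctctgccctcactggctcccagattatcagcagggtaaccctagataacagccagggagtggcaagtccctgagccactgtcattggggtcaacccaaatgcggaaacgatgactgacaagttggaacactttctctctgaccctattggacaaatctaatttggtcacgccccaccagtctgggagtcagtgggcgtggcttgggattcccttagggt
Gdpd3, chr7:126766164-126766413, plus strand: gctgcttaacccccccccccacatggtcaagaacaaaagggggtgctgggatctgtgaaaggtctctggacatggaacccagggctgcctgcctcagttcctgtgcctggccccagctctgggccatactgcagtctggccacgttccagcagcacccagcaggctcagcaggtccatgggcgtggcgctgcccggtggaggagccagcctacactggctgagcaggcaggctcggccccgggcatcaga
The half-site started at -14 in the Ucp1 window and at -220 in the Slc27a2 window, and these letters were in neither the Cox7a1 nor the Gdpd3 window. Of the 39 higher genes 31 were matched to a window and 9 of them (29%) held the half-site, against 4260 of 27025 genes (15.8%) in the whole promoter table. The repeat of AGGTCA in one direction with 1 base between its copies, which contains the half-site, was found in 0 of the 31 windows and in 11 of all genes. Such a match is a description of letters, not a binding site.

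The brown fat group led the higher genes. Of 26 listed thermogenic genes 22 were measured, and of these 18 were higher in the Ucp1-high arrays without overlap and 0 lower, 10 of them with a gap of at least 1, and the list median difference was 1.33 beside 0.01 for all genes. The list holds Ucp1 itself, which formed the sets. Without it 17 of 21 genes were higher without overlap, 9 with a gap of at least 1, and the median was again 1.33. With Ucp1 the mean of the list was 9.25, 8.87 and 9.17 in Lgr5 tumors 6, 7 and 8, compared with 7.28 and 7.20 in Lgr5 tumors 2 and 9. The highest of the 20 other arrays, K8 tumor 7, had 8.27, so the Ucp1-high arrays exceeded the series and the Ucp1-low arrays did not.

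**Figure D1:**
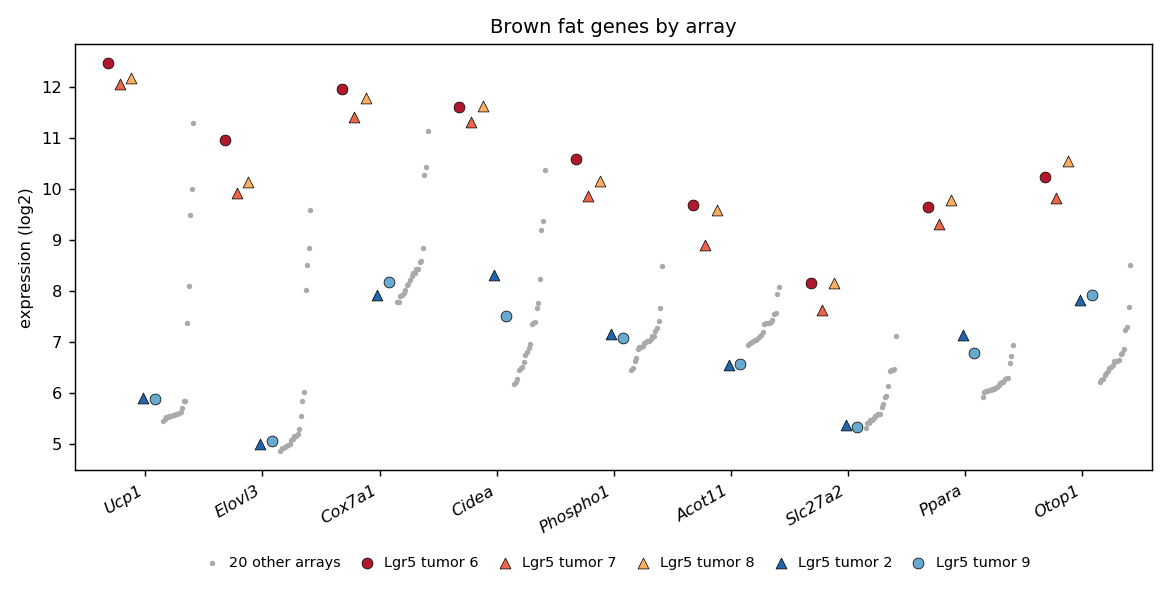
Expression (log2, vertical axis) of 9 brown fat genes, with 1 coloured symbol for each of the 5 fat-rich arrays and grey points for the 20 other arrays. Lgr5 tumors 6, 7 and 8 sit above Lgr5 tumors 2 and 9 for every gene shown; Ucp1 spans 12.07 to 12.47 against 5.89 to 5.92.

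Elovl3, an enzyme that lengthens fatty acids and is strongly cold-induced in brown fat, was 10.96, 9.93 and 10.14 in Lgr5 tumors 6, 7 and 8, compared with 5.01 and 5.06 in Lgr5 tumors 2 and 9, a difference of 5.31 (pooled SD 0.45). Cox7a1, the heart and muscle type subunit of cytochrome oxidase that brown fat also uses, was 11.97, 11.43 and 11.79 against 7.93 and 8.19, a difference of 3.67 (pooled SD 0.25). Cidea, a lipid droplet protein of brown fat, was 11.61, 11.33 and 11.64 against 8.33 and 7.53, a difference of 3.60 (pooled SD 0.36). In each of these genes the 3 Ucp1-high arrays lay well above both Ucp1-low arrays. Cidea also differed between the Ucp1-low arrays, with Lgr5 tumor 2 above Lgr5 tumor 9.

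Other members followed with smaller steps. Otop1, a proton channel gene, was 10.24, 9.83 and 10.55 in Lgr5 tumors 6, 7 and 8, compared with 7.84 and 7.94 in Lgr5 tumors 2 and 9. Acot11, a thioesterase induced by cold, was 9.69, 8.92 and 9.60 against 6.56 and 6.57, and Slc27a2, a fatty acid transport and activation gene, was 8.17, 7.63 and 8.16 against 5.37 and 5.33. Lgr5 tumor 7 was the lowest of the Ucp1-high arrays for each of these 3 genes and remained above both Ucp1-low arrays. Dio2, the deiodinase that makes active thyroid hormone within brown fat, was 7.99, 7.96 and 7.59 against 6.46 and 6.50, and the 20 other arrays reached 8.33, so its level was not particular to the Ucp1-high arrays. Cox8b, another muscle-type oxidase subunit, was 12.97, 12.62 and 12.92 against 11.53 and 11.43.

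The remaining members that did not overlap had differences from 0.99 for Fabp3, a fatty acid binding protein, to 1.39 for Ppargc1a, the coactivator that drives mitochondrial biogenesis. Among them were Ucp3 (1.31), the lipid droplet protein gene Plin5 (1.33), the potassium channel gene Kcnk3 (1.25) and Letmd1 (1.29). In 4 members the sets overlapped: Bmp8b, Clstn3, Kng1 and Gpr3 differed by 0.07, -0.03, 0.00 and 0.04, with all values between 5.33 and 6.07, below the array medians. Phospho1, a phosphatase abundant in brown fat that was in no list, was 10.59, 9.88 and 10.17 against 7.16 and 7.08.

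Several lower-ranked genes of the 39 belonged to fatty acid handling. Ppara, the nuclear receptor that controls fatty acid oxidation genes, was 9.66, 9.32 and 9.80 in Lgr5 tumors 6, 7 and 8, compared with 7.14 and 6.80 in Lgr5 tumors 2 and 9, a difference of 2.62 (pooled SD 0.24). Acacb, the acetyl-CoA carboxylase at the mitochondrial surface, was 11.24, 11.04 and 11.16 against 8.77 and 8.98, a difference of 2.27 (pooled SD 0.12). Gpd2, the mitochondrial glycerol phosphate dehydrogenase, was 11.57, 11.26 and 11.65 against 9.34 and 9.87. The Ucp1-high arrays did not overlap the Ucp1-low arrays in any of these genes, and Pank1 (2.19), a coenzyme A synthesis enzyme, Chchd10 (2.14) and the water channel gene Aqp11 (2.12) had similar differences.

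Mitochondrial pathways were higher as whole lists, with small steps. All 20 fatty acid oxidation genes were higher in the Ucp1-high arrays without overlap (median difference 0.68), as were all 16 citric acid cycle genes (0.68). In the respiratory chain the counts were 26 of 27 for complex I (0.51), 14 of 14 for complexes II and III (0.60) and 12 of 14 for complex IV (0.33). For ATP synthase 12 of 15 were higher and 2 lower, with a median of only 0.22. The background for no overlap in this direction was 18.5% of genes.

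**Figure D2:**
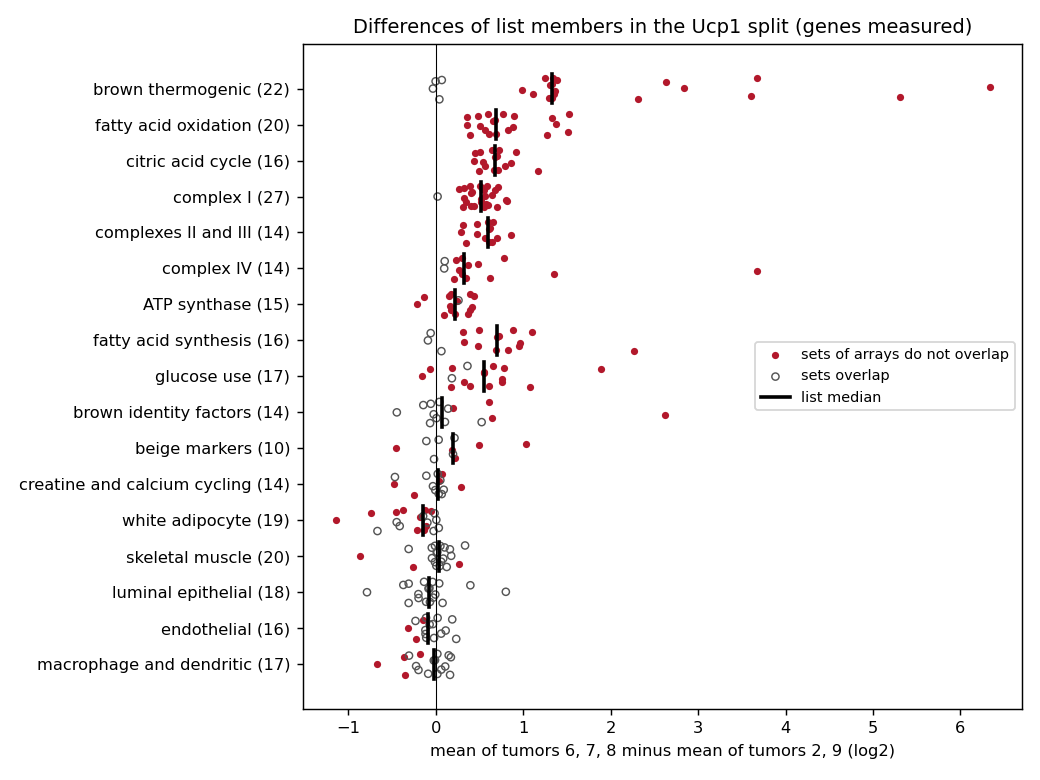
Differences between the means of Lgr5 tumors 6, 7 and 8 and of Lgr5 tumors 2 and 9 (log2, horizontal axis) for the measured members of each list. Filled points are genes whose sets of arrays did not overlap, open points those that overlapped, and bars are list medians; the thermogenic list has a median of 1.33 and the white adipocyte list one of -0.14.

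Within oxidation, the largest differences were those of Ehhadh (1.52), a peroxisomal enzyme, Pdk4 (1.52), the kinase that shuts off glucose carbon entry, Acadvl (1.37), Slc25a20 (1.33), the carnitine carrier, and Hadhb (1.27). Hadhb, a subunit of the trifunctional protein, was 12.19, 12.03 and 12.15 in Lgr5 tumors 6, 7 and 8, compared with 10.94 and 10.76 in Lgr5 tumors 2 and 9. Hadha, which encodes the other subunit, had a smaller difference of 0.83. In the citric acid cycle Sucla2, a succinyl-CoA ligase subunit, led with 1.17 and the pyruvate dehydrogenase component Dlat followed with 0.91. Sdha, the catalytic subunit of complex II, read 12.26, 12.21 and 12.23 against 11.67 and 11.67, a difference of 0.56 with a pooled SD of 0.02. The members outside the pattern were Ndufa2 of complex I (0.02), Cox6a2 (0.10) and Cox15 (0.10) of complex IV, and, lower in the Ucp1-high arrays, the ATP synthase inhibitor gene Atpif1 (-0.21) and Atp5g1 (-0.13). Atp5l, also of ATP synthase, overlapped at 0.26.

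Fatty acid synthesis and glucose use were also higher in the Ucp1-high arrays. Of 16 synthesis genes 13 were higher without overlap and 0 lower (median 0.70), and of 17 glucose genes 13 were higher and 2 lower (median 0.55). Elovl6, an elongase of newly made fatty acids, was 12.74, 12.76 and 12.76 in Lgr5 tumors 6, 7 and 8, 12.14 in Lgr5 tumor 9 and 11.16 in Lgr5 tumor 2. Acly, which makes cytosolic acetyl-CoA, was 12.67, 12.43 and 12.73, then 12.13 in Lgr5 tumor 9 and 11.17 in Lgr5 tumor 2. Lgr5 tumor 2 was the lowest array in both genes and Lgr5 tumor 9 lay between it and the Ucp1-high arrays. Without Lgr5 tumor 2 the median of the synthesis list was 0.49. Scd1, the desaturase, did not follow, with a difference of -0.06. In glucose use, the glycolytic gene Pfkl differed by 1.08 and the hexokinase Hk2 by 0.78, while the glucose transporter Slc2a1 (-0.07) and Hk1 (-0.16) were slightly lower. Slc2a5, the fructose transporter, was in no list and was 9.06, 8.38 and 9.44 against 5.42 in Lgr5 tumor 2 and 6.72 in Lgr5 tumor 9.

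White fat genes were nearly level. Of 19 white adipocyte genes 10 were lower in the Ucp1-high arrays without overlap and 0 higher, with a median of -0.14 and a background of 15.9% of genes. Lep, the hormone of white fat, was 11.14, 11.30 and 11.19 in Lgr5 tumors 6, 7 and 8, compared with 12.18 and 11.72 in Lgr5 tumors 2 and 9, a difference of -0.74 (pooled SD 0.20). Mest, a gene tied to fat cell growth, was 9.04, 9.66 and 9.52 against 10.31 and 10.79, a difference of -1.14 (pooled SD 0.33). Both genes were lower in every Ucp1-high array. Adipoq (-0.05), Fabp4 (0.01), Lipe (-0.01) and Plin1 (-0.09), which both kinds of fat cell express, differed by less than 0.1.

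Factors that specify brown fat were mostly level as well. Of 14 identity factors 4 were higher without overlap (Ppara 2.62, Esrra 0.65, Sirt3 0.60 and Lhx8 0.20), 0 were lower, and the median was 0.07. The shares over all genes were 18.5% higher and 15.9% lower. Prdm16, which sets the brown against the muscle fate, was 7.21, 7.08 and 7.22 in Lgr5 tumors 6, 7 and 8, compared with 7.24 and 7.02 in Lgr5 tumors 2 and 9. Ebf2, a selector of brown and beige precursors, was 9.31, 8.94 and 9.23 against 9.37 and 9.00, and Pparg was 11.94, 11.78 and 11.93 against 11.79 and 11.76. The sets overlapped in each of these 3 genes. All 5 arrays lay above the 20 others for Ebf2, whose highest value there was 7.63. Zic1, a marker of the interscapular brown depot, was 5.37 to 5.63 in all 5 arrays, below the array medians.

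Of 10 beige markers 4 were higher and 1 lower without overlap (median 0.19), beside 18.5% and 15.9% of all genes. P2rx5, a purine receptor, was 8.64, 8.22 and 8.95 in the Ucp1-high arrays and 7.52 and 7.63 in the Ucp1-low arrays, and the amino acid transporter Slc36a2 differed by 0.50. Tbx1 (0.22) and Tmem26 (0.19) were the other higher members, and Klhl13 (-0.45) was lower. P2rx5 and Slc36a2 are expressed by classical brown fat too, so the list does not separate beige from brown cells.

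Genes of body position gave the same reading in both sets. Of 26 such factors 3 were higher and 3 lower without overlap (median 0.00), beside 18.5% and 15.9% of all genes. Hoxc8, a trunk position gene, was 11.53, 11.32 and 11.77 in Lgr5 tumors 6, 7 and 8, compared with 12.07 and 11.76 in Lgr5 tumors 2 and 9, while the 20 other arrays reached 10.30. Hoxc10, of the posterior trunk, was 7.61, 7.15 and 7.62 against 7.58 and 7.49, with at most 6.29 elsewhere. Both genes were above the other arrays in all 5 fat-rich arrays and overlapped between the sets.

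Of 12 cold and adrenergic response genes 5 were higher without overlap and 1 lower (median 0.14), beside 18.5% and 15.9% of all genes. The median was 0.82 over the 8 members that reached 7 in at least 1 of the 5 arrays. Elovl3 and Dio2 passed that floor through the Ucp1-high arrays alone. Such selection raises the median, so nothing is read from the rise. The higher members were Elovl3, Pdk4, Ppargc1a, Dio2 and Vgf, with 0.16 for Vgf. Nr4a1, an immediate response gene, was 7.24, 7.32 and 7.14 against 7.14 and 7.46, and Fgf21, a cold-induced hormone, was 5.46 to 5.59 in all 5 arrays. Rgs2, a brake on G protein signalling, was the lower member (-0.62). Creatine and calcium cycling, heat sources that do not need Ucp1, were level, with 3 of 14 genes higher, 2 lower and a median of 0.03.

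Muscle shares part of this program, and its markers stayed low. The mean of 20 skeletal muscle genes was 6.59, 6.68 and 6.65 in Lgr5 tumors 6, 7 and 8, compared with 6.67 and 6.61 in Lgr5 tumors 2 and 9. Without overlap 1 gene was higher and 2 lower, beside 18.5% and 15.9% of all genes, and the median difference was 0.03. Over the 7 members that reached 7 in at least 1 of the 5 arrays the median was 0.16. A member can pass that floor through 1 set alone, so nothing is read from this median. Ckm, the muscle creatine kinase, was 7.11, 7.10 and 7.30 against 6.91 and 6.90. Myh4, a fast myosin, was 6.31, 6.41 and 6.28 against 6.27 and 6.38, where the highest other array had 10.40. Muscle markers were therefore at like levels in both sets while Cox7a1, Cox8b and Ucp3 differed.

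The 16 genes lower in the Ucp1-high arrays included few fat genes. Sfrp5, a secreted Wnt inhibitor made by white fat cells, was 7.63, 6.99 and 7.79 in Lgr5 tumors 6, 7 and 8, compared with 10.16 and 9.71 in Lgr5 tumors 2 and 9, a difference of -2.46 (pooled SD 0.39). The 20 other arrays reached only 6.78, so all 5 fat-rich arrays lay above them. Aldh1a1, a retinaldehyde dehydrogenase of white fat, was 9.32, 8.90 and 8.92 against 11.17 and 10.53, a difference of -1.80 (pooled SD 0.33). Tnfsf11, the RANK ligand gene, was 7.65, 7.70 and 7.43 against 9.24 and 9.16, and Ptgfr, a prostaglandin receptor gene, was 8.38, 8.38 and 8.37 against 9.42 and 9.64. Ptgfr no longer met the gap of 1 after quantile normalization. In each of these genes both Ucp1-low arrays were above all Ucp1-high arrays.

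A group of genes split the 5 arrays in the same way without following Ucp1 elsewhere. The comparison with other arrays was chosen after the values were seen. In 15 of the 20 other arrays Ucp1 was below 6. For 23 of the 39 higher genes none of these 15 arrays lay on the Ucp1-high side of the middle of the gap, for 10 some did, and for 6 all did. The 6 were Gdpd3, Pagr1a, Clic6, Dkkl1, Btn1a1 and Sorcs2. Clic6 and Dkkl1 were higher in all 20 other arrays (at least 8.58 and 9.19) than in any of the 5. Btn1a1 was at least 8.91 there, above 4 of the 5. Btn1a1, butyrophilin, is a milk fat globule gene and belongs with the milk genes described below. Of the 16 lower genes, 0 had all 15 arrays with Ucp1 below 6 on the Ucp1-low side. For 10 some of the 15 lay there, and for 6 all lay on the Ucp1-high side.

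Gdpd3, a lysophospholipase gene, was 10.66, 10.42 and 10.62 in Lgr5 tumors 6, 7 and 8, compared with 5.72 and 5.81 in Lgr5 tumors 2 and 9, a difference of 4.80 (pooled SD 0.11). Every one of the 20 other arrays had at least 8.78, so the low value was seen only in Lgr5 tumors 2 and 9 of the 25 arrays. Pagr1a, which encodes a partner of a histone methyltransferase complex, was 9.16, 9.14 and 9.16 against 7.50 and 7.60, with at least 8.88 elsewhere. It showed the same pair of low arrays. In the GRCm38.p6 gene order Pagr1a lies on the same chromosome as Gdpd3 with 17 protein-coding genes between them. Tlcd3b, with 4 genes between it and Gdpd3, was 7.54, 7.68 and 8.40 against 6.38 and 6.62. The 20 other arrays had 5.48 to 6.27 for Tlcd3b, below Lgr5 tumors 2 and 9, so Tlcd3b did not share the pattern of Gdpd3 and Pagr1a. Of the 20 measured neighbours nearest to Gdpd3, 6 were higher and 4 lower without overlap and 0 had a gap of at least 1, beside 18.5% and 15.9% of all genes without overlap.

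**Figure D3:**
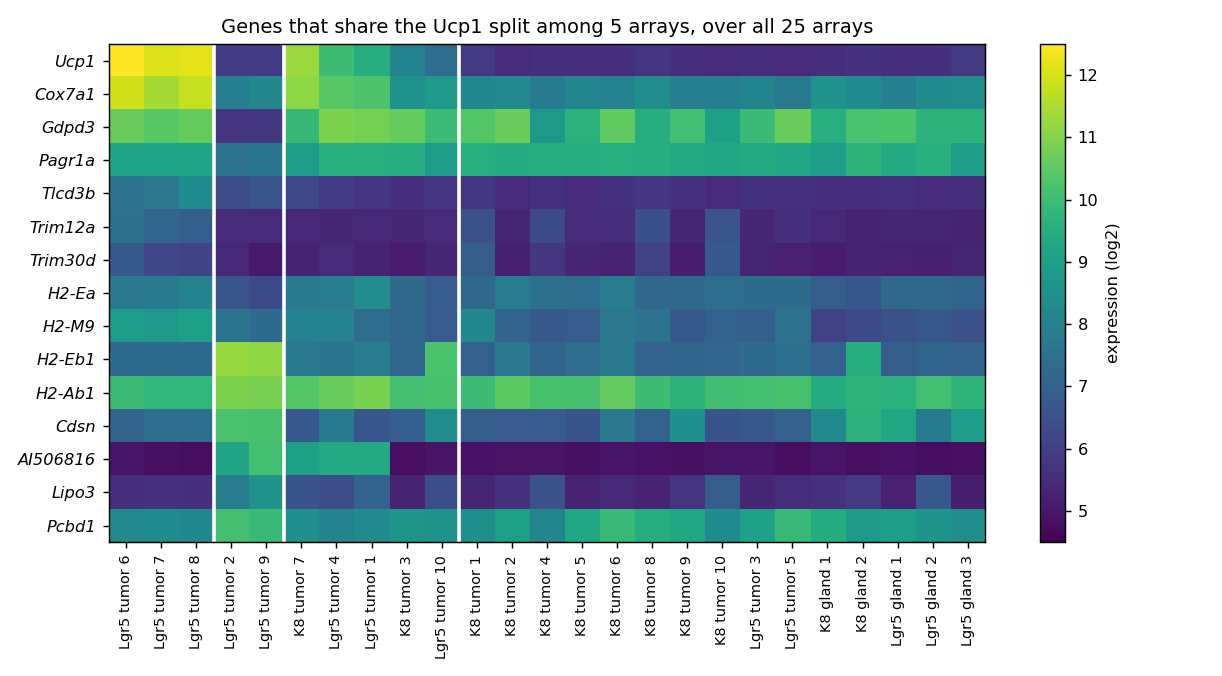
Expression (log2, colour) of 15 genes in rows over all 25 arrays in columns, ordered as the 3 Ucp1-high arrays, the 2 Ucp1-low arrays, the 5 other arrays with Ucp1 above 6 and the remaining 15. Gdpd3 and Pagr1a are low only in Lgr5 tumors 2 and 9, whereas H2-Eb1 is high in these and also in Lgr5 tumor 10 (10.23) and K8 gland 2 (9.49).

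Some genes of the major histocompatibility complex, whose alleles differ between mouse strains, also differed between the sets. H2-Eb1, a class II chain gene, was 7.30, 7.34 and 7.29 in Lgr5 tumors 6, 7 and 8, compared with 11.28 and 11.19 in Lgr5 tumors 2 and 9, a difference of -3.92 (pooled SD 0.04). Among the other arrays Lgr5 tumor 10 had 10.23 and K8 gland 2 had 9.49, and the remaining 18 had 6.86 to 7.90. The level was thus either high or low, with Lgr5 tumors 2 and 9 in the high class. H2-Ab1, a class II gene with 1 protein-coding gene between it and H2-Eb1, differed by -1.04 and H2-Aa by -0.10, so class II genes did not move as a block. H2-Ea ran the other way, with 7.70, 7.83 and 8.09 against 6.60 and 6.29, as did H2-M9 with 8.96, 8.76 and 9.02 against 7.58 and 7.31. Of 29 measured H2 genes 11 were higher and 6 lower without overlap, 2 and 1 of them with a gap of at least 1, and 12 overlapped. The shares over all genes were 18.5% higher and 15.9% lower. Cdsn, the corneodesmosin gene of skin, was 7.06, 7.35 and 7.40 against 10.21 and 10.17. K8 gland 2 had 9.63, Lgr5 gland 1 had 9.30 and Lgr5 gland 3 had 8.93. K8 tumor 9, Lgr5 tumor 10 and K8 gland 1 had 8.51, 8.44 and 8.33. H2-Eb1 was low in Lgr5 glands 1 and 3 (6.86 and 7.01), so Cdsn did not follow H2-Eb1 across the other arrays.

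Trim12a, an innate immunity gene with strain-dependent copies, was 7.46, 7.12 and 6.90 in Lgr5 tumors 6, 7 and 8, compared with 5.45 and 5.49 in Lgr5 tumors 2 and 9. K8 tumors 1, 4, 8 and 10 had 6.31 to 6.60 and the other 16 arrays at most 5.59. Trim30d, with 6 genes between it and Trim12a, was 6.71, 6.21 and 6.15 against 5.43 and 5.08. Both were higher in the Ucp1-high arrays although the 4 K8 tumors with raised Trim12a had Ucp1 below 6. Genes with close copies, such as Trim12a, Trim30d and the H2 genes, can share probe signal with those copies.

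Genes were called on-off where the largest step among the 5 arrays was at least 1.5 and the 20 other arrays fell on both sides of its middle, at least 3 on each and none within 0.5 of it. By this measure 3 genes were found (0.015%). AI506816, a noncoding RNA, was 4.97, 4.85 and 4.79 in Lgr5 tumors 6, 7 and 8, compared with 9.19 and 10.08 in Lgr5 tumors 2 and 9. It was also on in Lgr5 tumors 1 (9.38) and 4 (9.35) and K8 tumor 7 (9.05), and at most 4.98 in the other 17 arrays. These 3 outside arrays had Ucp1 of 9.49, 10.00 and 11.30, so AI506816 was on with Ucp1 there and off with it in Lgr5 tumors 6, 7 and 8. It was also off in K8 tumor 3 (4.84) and Lgr5 tumor 10 (4.91), whose Ucp1 was 8.10 and 7.37. Elovl3 was on in Lgr5 tumors 6, 7 and 8 and in K8 tumors 6 (9.60) and 7 (8.53) and Lgr5 tumors 4 (8.86) and 5 (8.03). Ucp1 was high in K8 tumor 7 and Lgr5 tumor 4 but 5.57 in K8 tumor 6 and 5.46 in Lgr5 tumor 5. Elovl3 was 5.17 to 5.56 in Lgr5 tumors 1 and 10 and K8 tumor 3, whose Ucp1 was 9.49, 7.37 and 8.10. Outside the 5 arrays Elovl3 thus followed Ucp1 only in part. Capn6, a calpain family gene, was 7.51 in Lgr5 tumor 9 and 5.55 to 5.89 in the other 4 arrays, and was on in 14 of the 20 others.

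Of 14 measured genes listed as variable between strains, 6 were higher and 3 lower without overlap (median 0.09), beside 18.5% and 15.9% of all genes. The list holds Trim12a, Trim30d, H2-Ea and AI506816 and was written with earlier results known, so it is not independent of them. Nnt, the transhydrogenase gene deleted in part in some C57BL/6 stocks, differed by -0.13, Wdfy1 by 0.11 and Glo1 by 0.20. Ifi202b, an interferon-inducible gene with strain-dependent expression, was 8.95 in Lgr5 tumor 2 and 6.84 to 7.24 in the other 4. Strain-like genes and brown fat genes fell on the same split of 3 against 2 arrays, so with these 5 arrays they cannot be told apart, and whether the animals differed in strain alleles was not tested.

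A second pattern crossed the Ucp1 split. T cell genes were high in Lgr5 tumors 2, 7 and 8 and low in Lgr5 tumors 6 and 9, so Lgr5 tumor 6 was Ucp1-high only, Lgr5 tumor 2 was T cell-high only, Lgr5 tumors 7 and 8 were both and Lgr5 tumor 9 was neither. This split was formed on T cell genes, known from earlier results of these data, and is described without a test. In it 14 genes were higher with a gap of at least 1 (0.0702%) and 2 lower (0.01%), where 8.77% of genes were higher and 7.88% lower without overlap. The 14 genes could not be among the 39 higher or the 16 lower genes, so nothing is read from the overlap of 0. Each of the 14 has Lgr5 tumor 2 above Lgr5 tumor 6 and Lgr5 tumor 7 above Lgr5 tumor 9. A higher gene of the Ucp1 split needs the reverse of the first order, and a lower gene the reverse of the second.

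All 21 measured T cell genes were higher in the T cell-high arrays without overlap (median 0.95), 4 with a gap of at least 1. Over all genes 8.77% were higher without overlap. The count for this list restates the split, which T cell genes formed. The list mean was 7.11, 7.04 and 7.05 in Lgr5 tumors 7, 8 and 2, compared with 6.01 and 6.21 in Lgr5 tumors 6 and 9. The 15 remaining tumor arrays had no more than 6.66. Cd3g, a T cell receptor complex chain, was 9.45, 8.95 and 9.00 in Lgr5 tumors 7, 8 and 2, compared with 7.03 and 7.37 in Lgr5 tumors 6 and 9, a difference of 1.94 (pooled SD 0.27). Il7r, the receptor of naive and memory T cells, was 8.29, 8.10 and 8.54 against 6.18 and 6.79, and Ccr7, the homing receptor for lymph nodes, was 8.27, 8.18 and 7.60 against 6.19 and 6.47. For each gene Lgr5 tumor 6 was the lowest of the 5.

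**Figure D4:**
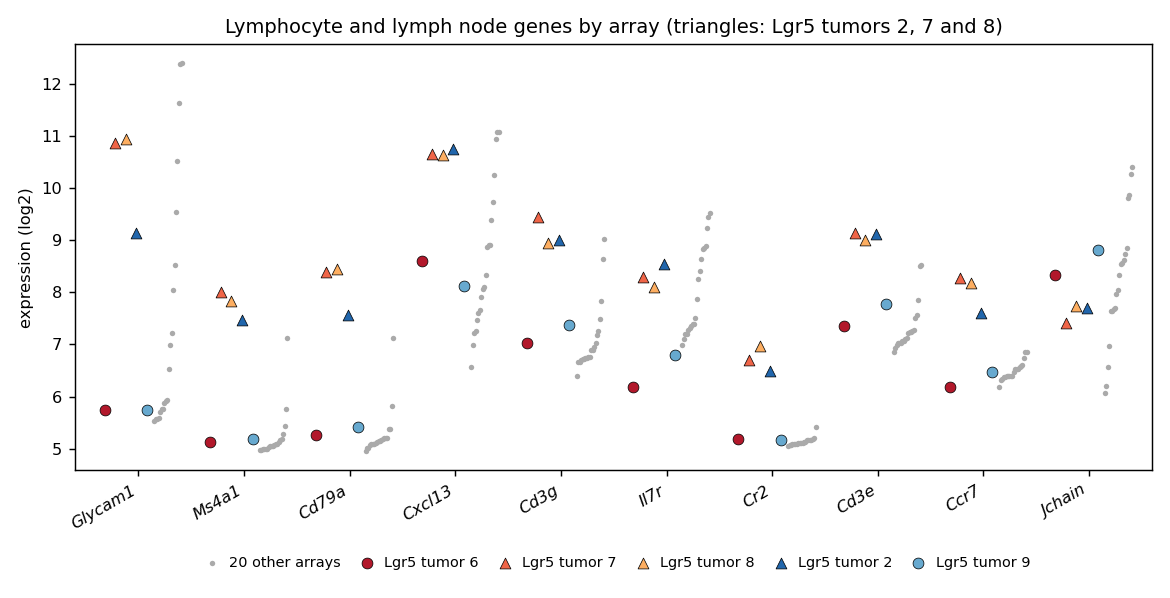
Expression (log2, vertical axis) of 10 lymphocyte and lymph node genes, with 1 coloured symbol for each of the 5 fat-rich arrays (triangles for Lgr5 tumors 2, 7 and 8) and grey points for the 20 other arrays. The triangles sit above the other 2 coloured symbols for 9 genes, and Jchain runs the other way, with 7.41 to 7.75 against 8.33 and 8.82.

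B cell genes followed T cell genes, and plasma cell genes did not. Of 19 measured B and plasma cell genes 14 were higher and 1 lower without overlap (median 0.72), beside 8.77% and 7.88% of all genes. Ms4a1, which encodes CD20, was 8.01, 7.83 and 7.48 in Lgr5 tumors 7, 8 and 2, compared with 5.12 and 5.19 in Lgr5 tumors 6 and 9, a difference of 2.62 (pooled SD 0.22). Cd79a, a B cell receptor chain, was 8.39, 8.45 and 7.57 against 5.26 and 5.41, and Cr2, the complement receptor of B cells and follicular dendritic cells, was 6.70, 6.97 and 6.49 against 5.19 and 5.16. Lgr5 tumor 2 was the lowest of the T cell-high arrays in each of these genes. Jchain, the joining chain of secreted antibodies, was lower in the T cell-high arrays with 7.41, 7.75 and 7.70 against 8.33 and 8.82, and the plasma cell genes Mzb1 (0.26), Derl3 (-0.11), Prdm1 (-0.09) and Xbp1 (-0.06) differed little.

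Of 15 lymph node stroma and vessel genes 5 were higher and 1 lower without overlap (median 0.08), beside 8.77% and 7.88% of all genes. Over the 6 members that reached 7 in at least 1 of the 5 arrays the median was 1.10. A member can pass that floor through the T cell-high arrays alone, as Glycam1 did. Such selection raises the median, so nothing is read from the rise. Cxcl13, the chemokine that draws B cells into follicles, was 10.65, 10.63 and 10.75 in Lgr5 tumors 7, 8 and 2, compared with 8.59 and 8.12 in Lgr5 tumors 6 and 9, a difference of 2.32 (pooled SD 0.20). Ccl19, the chemokine of the T cell zone, was 10.38, 10.33 and 9.78 against 8.29 and 9.03. Glycam1 had the largest difference of the split at 4.57 (pooled SD 0.84), with 10.87, 10.94 and 9.13 against 5.74 and 5.73. Glycam1 is made by high endothelial venules of lymph nodes and also by milk-producing epithelium, and the 20 other arrays reached 12.40 in Lgr5 gland 3. Among other vessel genes Madcam1 (-0.33), Chst4 (0.02) and Sele (0.03) did not follow. Lyve1, a lymphatic vessel gene, was 10.98, 10.96 and 10.97 in Lgr5 tumors 6, 7 and 8, compared with 10.60 and 9.31 in Lgr5 tumors 2 and 9, so Lgr5 tumor 9 alone was far below the rest.

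**Figure D5:**
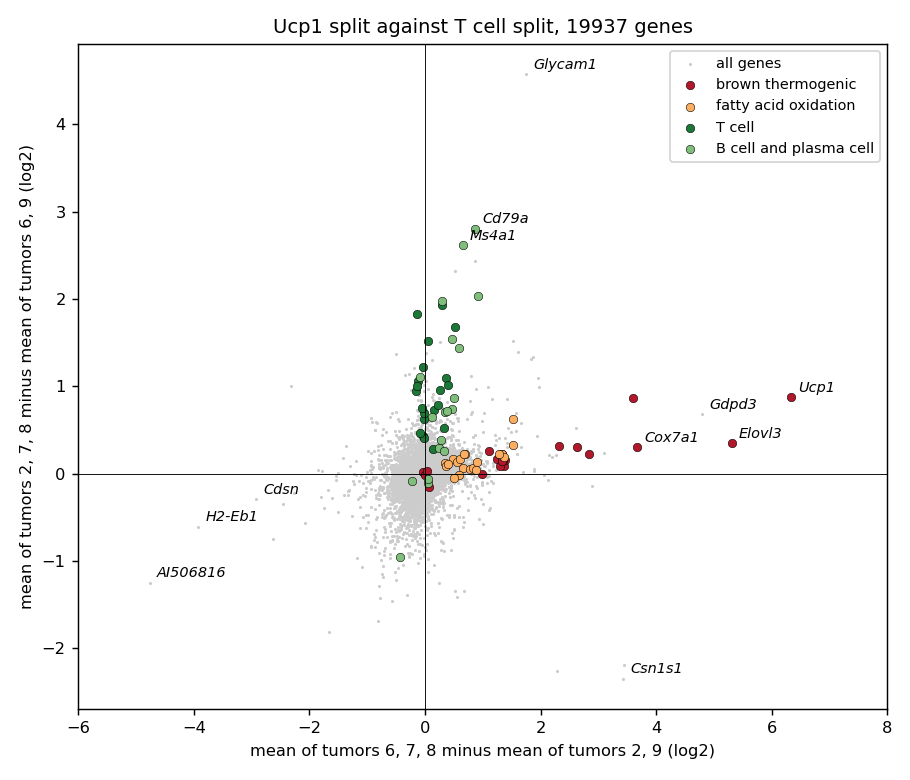
Each of 19937 genes by its Ucp1 split difference (horizontal axis, log2) and its T cell split difference (vertical axis, log2), with members of 4 lists in colour. Thermogenic genes spread along the horizontal axis to Ucp1 (6.34) and lymphocyte genes along the vertical axis to Cd79a (2.80), with Glycam1 at 4.57.

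Some luminal epithelial genes followed the T cell split in the other direction. Of 18 luminal genes 8 were lower in the T cell-high arrays without overlap, beside 7.88% of all genes. Muc15, a membrane mucin gene, was 10.04, 9.51 and 9.91 in Lgr5 tumors 7, 8 and 2, compared with 11.21 and 11.21 in Lgr5 tumors 6 and 9, and the connexin gene Gjb2 was 7.71, 7.06 and 8.26 against 9.32 and 9.41. These were the 2 lower genes with a gap of at least 1. The part of epithelial content in the T cell split was not tested.

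Other tissue components were set beside the Ucp1 split. Endothelial genes were level, with a list mean of 9.72 to 9.86 in the 5 arrays, 0 of 16 higher, 3 lower and a median of -0.09. Macrophage genes were level too, at 8.96 to 9.20, with 0 of 17 higher, 4 lower and a median of -0.02. Of 13 nerve and Schwann cell genes 0 were without overlap, and Th, the rate-limiting enzyme of noradrenaline synthesis, was 5.59 to 5.75 in all 5. Of 14 basal genes 6 were lower in the Ucp1-high arrays without overlap (median -0.31) and 8 overlapped. Of 16 fibroblast genes 6 were lower, 1 higher and 9 overlapped (median -0.23), where 15.9% of all genes were lower. Lgr5 tumor 9 had the highest mean of both lists among the 5 arrays (9.41 and 11.41). The means of Lgr5 tumor 2 (8.85 and 11.15) lay within the range of the Ucp1-high arrays. The median of the basal list was -0.66 without Lgr5 tumor 2 and -0.12 without Lgr5 tumor 9. The part of these cell types in the Ucp1 split was not tested.

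Cell cycle genes varied within both sets. The list mean was 7.03, 7.71 and 6.76 in Lgr5 tumors 6, 7 and 8, compared with 7.33 and 7.89 in Lgr5 tumors 2 and 9, below the 15 other tumor arrays (8.13 to 9.41). Of 19 genes 5 were lower without overlap, where 15.9% of all genes were lower. Among the 5, Mcm6, a replication helicase subunit, was 6.79, 7.09 and 6.44 against 8.13 and 7.89. Mki67, the proliferation marker, overlapped, with 8.02, 9.48 and 7.37 against 8.56 and 9.63. Lgr5 tumors 7 and 9 were the highest of the 5 for Mki67, 1 from each set.

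Milk genes separated the 5 arrays unevenly. Csn1s1, a casein gene, was 12.46, 10.95 and 11.00 in Lgr5 tumors 6, 7 and 8, 10.55 in Lgr5 tumor 9 and 5.52 in Lgr5 tumor 2, where the 20 other arrays had at least 11.71. Lgr5 tumor 2 alone accounted for most of that difference. Csn2 was 12.54, 8.97 and 10.57 against 7.09 in Lgr5 tumor 2 and 9.73 in Lgr5 tumor 9, so the sets overlapped. Csn3 was 11.98, 11.81 and 11.83 against 10.67 and 10.91. Of 12 milk genes 3 were higher without overlap and 0 lower, beside 18.5% and 15.9% of all genes. Interferon-stimulated genes were highest in Lgr5 tumor 6, with a list mean of 8.25 beside 7.07 to 7.52 in the other 4 arrays. In the Ucp1-high arrays 3 of 12 were higher without overlap, where 18.5% of all genes were.

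Likeness to Ucp1 was measured by Pearson correlation over the 5 arrays among genes with a range of at least 2, as a description without a test. Such a correlation over 5 arrays in 2 clusters mostly restates the split. The highest were Gdpd3 (1.00), Acacb (0.998), Cox7a1 (0.997), Elovl3 (0.996), Pank1 (0.995), Phospho1 (0.994), Ncan (0.993), Slc27a2 (0.992), Chchd10 (0.991) and Ppara (0.991). Over all 25 arrays Cox7a1 stayed closest to Ucp1 among these 10 with 0.980, Chchd10 had 0.911, Phospho1 0.904 and Acacb 0.901. Gdpd3, first over 5 arrays, had only 0.33 over 25. The 5 other arrays with Ucp1 above 6 had skeletal muscle means of 8.00 to 9.94, where the 5 fat-rich arrays had 6.59 to 6.68. K8 tumor 8, with Ucp1 at 5.72, had 8.32. The part of muscle content in the correlations over 25 arrays was not tested. Of the 39 higher genes 22 had their highest value outside the 5 arrays in K8 tumor 7, against 2 of the 16 lower genes. K8 tumor 7 had the highest Ucp1 outside the 5 arrays and also the highest white adipocyte mean there (10.98). The share of all genes with their highest value in K8 tumor 7 was not counted, and a tie of the 22 genes to Ucp1 was not tested.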

How the data were processed

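Per the labels' protocols, RNA of cryo-homogenized tissue was amplified and measured on Affymetrix arrays. The deposited table holds log2 values, by their range of 4.13 to 13.9, for 34760 probe sets; the base is not stated by the authors. The submitters' processing notes name affy without a version, and the summarization step and the genome build were not given in the sources used here.

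Gene names came from the platform annotation (probe sets: 21640 with 1 symbol, 1321 with several and 11799 unlisted), and the brightest probe set of a symbol gave 19937 genes. No arrays held identical values. Each gene was described by its values, the difference of set means, the pooled SD within sets and the gap between sets, with no test. The counting was tested on simulated data. Python 3.11.15, numpy 2.4.6, pandas 2.3.3 and matplotlib 3.10.9 were used.

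The arrays and the 31 lists (541 genes, 494 measured) were chosen with earlier results of these data known. The text draws its genes from Ucp1, up to 6 members of each list with the largest differences, defining markers, the 15 largest gaps in each direction, on-off genes and the 10 genes most like Ucp1. Other genes of the lists and of those counted were named after their values were seen. Alternatives covered probe sets, scaling, a floor, the gap and each array left out.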

Additional observations from a re-analysis of the deposited data

Results flagged for a closer look

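Ucp1 was more than 1 above the highest array labelled gland, where it was 5.54 to 5.85, in 5 arrays outside the fat-rich set. It was 11.30 in K8 tumor 7, 10.00 in Lgr5 tumor 4, 9.49 in Lgr5 tumor 1, 8.10 in K8 tumor 3 and 7.37 in Lgr5 tumor 10. The skeletal muscle list mean was 9.69, 9.94, 9.26, 8.00 and 8.97 in these arrays in the same order, and 6.59 to 6.68 in the 5 fat-rich arrays.

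Among the 5 fat-rich arrays 31 list means were checked for a highest or lowest array whose distance to its neighbour was a large share of the range by Dixon's 95% critical value, and 2 had one. The nerve and Schwann cell mean was 7.31 in Lgr5 tumor 6 and 7.26 in each of the other 4, a distance of less than 0.1. The squamous mean was 6.15 in Lgr5 tumor 7 and 5.88 to 5.92 in the others. Of its genes Sprr1a, a cornified envelope gene, was 10.33 in Lgr5 tumor 7 and 6.66 to 7.72 in the other 4 fat-rich arrays. In 18 of the 20 arrays outside the fat-rich set Sprr1a was above 9.02. By the definition of that critical value, chance gives such an array in about 1 of 20 groups.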

How the results depend on the processing

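With a gap of 0.5 in place of 1, 159 genes were higher and 82 lower in the Ucp1-high arrays, and 62 higher and 22 lower in the T cell-high arrays. With a gap of 2 the counts were 10, 4, 4 and 0. Leaving out each array in turn gave 40 to 69 higher and 18 to 60 lower genes in the Ucp1 split and 14 to 29 higher and 2 to 25 lower genes in the T cell split. The counts moved by over 1.5 times without Lgr5 tumor 9 (69, 60, 29 and 20), without Lgr5 tumor 2 (40 lower in the Ucp1 split, and 23 and 7 in the T cell split) and without Lgr5 tumor 6 (27 lower in the Ucp1 split and 25 in the T cell split). Fewer arrays make a gap easier to reach, and all 39, 16 and 14 genes were kept in each case. Quantile normalization gave 43, 15, 15 and 2 genes and kept 39, 15 and 14 of them. The mean of probe sets, median centring and a floor of 7 left every one of these counts within 1.5 times of its value, though the floor moved several list medians. Of the values of named genes and list medians under these alternatives, 922 moved by less than the spread between arrays and 40 by more. The differences of named genes kept their sign, as did the medians of the 12 lists in which most members did not overlap in a split. Among the other list medians 49 values changed sign. The T cell split median of the brown thermogenic list went from 0.17 to -0.62 without Lgr5 tumor 9, and the Ucp1 split median of the T cell list from -0.01 to 0.40 without Lgr5 tumor 6 and 0.44 without Lgr5 tumor 2. No paired analysis was possible because no test was run and the 5 arrays belong to 1 labelled group. The number of arrays, 3 against 2, limits the precision, and without detection calls low values have no known distance from background.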
